A study of Mus musculus with 2 samples.

Results

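The 7 globin genes examined here were chosen by symbol, as the alpha-like and beta-like globin genes with a row in a table of 18877 genes, and all 7 listed symbols had a row. They were 3 alpha-like genes (Hba-x, Hba-a1 and Hba-a2) and 4 beta-like genes (Hbb-y, Hbb-bh1, Hbb-bs and Hbb-bt). Of these, Hba-x, Hbb-y and Hbb-bh1 are the embryonic genes and the other 4 are the adult genes. RNA-seq had been performed on primordial germ cells (PGCs), the precursors of oocytes and sperm, from untreated C57BL6 mouse embryos at E9.5. The cells were isolated by their surface antigen SSEA1, and the methods describe the embryos as female. Both libraries belong to 1 group, with 2 biological replicates, so no comparison between conditions was possible. The methods describe both flow sorting and magnetic beads for PGCs, and which was used for these libraries, and how many embryos entered each, is not given in the sources used here.

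Hemoglobin, the oxygen carrier of red blood cells, is assembled from alpha-like and beta-like chains in equal numbers. Mouse embryos first make it in primitive erythroid cells, which arise in the yolk sac, circulate at midgestation and use the embryonic chains together with the adult alpha chain. Definitive erythroid cells of the fetal liver later use the adult chains. Within primitive erythroid cells, Hbb-bh1 is known to lead early and Hbb-y later. Globin transcripts are known as transcripts of the erythroid lineage, and none of the 7 is known as a marker of PGCs.

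Values are TPM (a length-corrected transcript level, for which the reads of each gene are divided by its length and each library is brought to a common total), and errors are the SD of both replicates (n = 2). The reads behind each value were recovered from TPM and gene length. Replicate 1 held 15912471 recovered reads and replicate 2 held 5458687, so counting error was larger in replicate 2. All 10 listed PGC markers reached 1 TPM in both libraries, led by Dppa3 at 5044 ± 44.1, Ifitm3 at 1545 ± 37.8, Nanos3 at 463 ± 14.3 and Sox2 at 126 ± 28.8 TPM. At this threshold 60.0% of all genes in the table were detected in both.

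Hba-x, which encodes the embryonic alpha-like chain zeta, was the most abundant globin transcript. It was at 2331 TPM in replicate 1 (20781 reads, exact Poisson 95% interval 2299 to 2363 TPM) and 2065 TPM in replicate 2 (6475 reads, 2015 to 2116 TPM). Its mean of 2198 ± 188 TPM ranked it 64th of the 18877 genes by level. In a bulk library, few cells with much globin RNA cannot be told apart from many cells with little. Hba-x lies on chromosome 11 (32276400 to 32278116, plus strand, GRCm38) and has 3 exons in its principal transcript.

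The adult alpha genes lie downstream of it on the same strand. Hba-a1 (chromosome 11, 32283511 to 32284465) was at 446 TPM in replicate 1 (3440 reads) and 434 TPM in replicate 2 (1177 reads), with a mean of 440 ± 8.55 TPM. Hba-a2 (chromosome 11, 32296489 to 32297298) was at 19.2 TPM (122 reads) and 14.8 TPM (33 reads), with a mean of 17.0 ± 3.14 TPM. Both encode the adult alpha chain, and Hba-a1 was far above Hba-a2 in each library.

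Among the beta-like genes, Hbb-y, which encodes the embryonic chain epsilon-y, was highest. It was at 927 TPM in replicate 1 (5576 reads, 902 to 951 TPM) and 1025 TPM in replicate 2 (2170 reads, 983 to 1069 TPM), and its mean of 976 ± 69.8 TPM ranked 173rd. Hbb-bh1, the other embryonic beta-like gene (chain beta-H1), was at 271 TPM (1581 reads) and 237 TPM (485 reads), with a mean of 254 ± 24.5 TPM. Hbb-y is on chromosome 7 at 103851749 to 103853216 and Hbb-bh1 at 103841637 to 103843164, both on the minus strand.

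The adult beta genes were lower in the table, at ranks 5710 (Hbb-bs) and 7293 (Hbb-bt). Hbb-bs (chromosome 7, 103826534 to 103828096) was at 9.73 TPM (71 reads, 7.60 to 12.3 TPM) and 6.62 TPM (17 reads, 3.86 to 10.6 TPM). Hbb-bt (chromosome 7, 103812524 to 103813996) was at 5.39 TPM (36 reads, 3.77 to 7.46 TPM) and 4.68 TPM (11 reads, 2.34 to 8.37 TPM). Their means were 8.17 ± 2.20 and 5.03 ± 0.4997 TPM, compared with a median of 2.65 TPM over all genes.

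**Figure D1:**
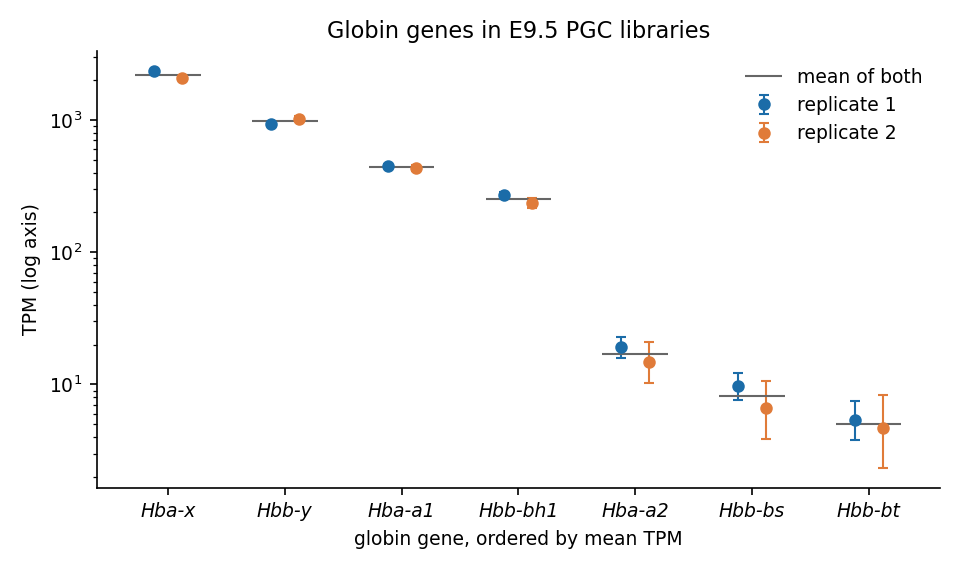
TPM (log axis) of the 7 globin genes in replicate 1 and replicate 2, with exact Poisson 95% intervals of counting error as bars and the mean of both replicates as a line. Hba-x is at about 2198 TPM, and the adult beta genes Hbb-bs and Hbb-bt are below 10 TPM in both libraries.

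By TPM the order of the 7 levels was the same in both replicates. The steps between Hbb-y and Hba-a1 and between Hbb-bs and Hbb-bt depend on the measure of length, as given below. Hba-x exceeded Hbb-y 2.52-fold in replicate 1 and 2.01-fold in replicate 2, and Hbb-y exceeded Hba-a1 2.08-fold and 2.37-fold. The step from Hba-a1 to Hbb-bh1 was smaller, at 1.64-fold and 1.83-fold. The widest step between neighbors was from Hbb-bh1 down to Hba-a2, at 14.1-fold and 16.0-fold. It separated the 4 more abundant globin genes from the 3 less abundant ones. Hba-a2 exceeded Hbb-bs 1.98-fold and 2.24-fold. For these 5 pairs and the last pair, the values of the 2 libraries did not overlap. In each pair the difference of means was larger than the SD of either gene. By counting error the last pair, Hbb-bs and Hbb-bt, was less certain. Hbb-bs was higher 1.81-fold in replicate 1 (95% counting interval of the ratio 1.19 to 2.78) and 1.41-fold in replicate 2 (0.625 to 3.34), so that they did not differ beyond counting error in replicate 2.

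Positions along the chromosomes were then set beside the levels. In each cluster the embryonic genes lie upstream of the adult genes. Within the beta-like cluster, Hbb-y lies upstream of Hbb-bh1, although Hbb-bh1 is known to lead earlier. Along the alpha-like cluster, which spans 20.9 kb, the levels of the 3 genes fell in the order Hba-x, Hba-a1, Hba-a2, with starts 7.11 and 20.1 kb downstream of Hba-x. Along the beta-like cluster of 40.7 kb they fell in the order Hbb-y, Hbb-bh1, Hbb-bs, Hbb-bt, with starts 10.1, 25.1 and 39.2 kb downstream of Hbb-y. Globin genes outside the 7 interrupted this order. Hbq1b, the theta-like gene between Hba-a1 and Hba-a2, was at 3.34 and 2.06 TPM (23 and 5 reads). The pseudogene Hbb-bh0, between Hbb-y and Hbb-bh1, was at 53.8 and 46.4 TPM, which rested on 66 and 20 reads because only 129 exonic bases are annotated. Cytoglobin (Cygb), a globin outside both clusters, was listed at 0 in both libraries, where 3 reads would give 0.135 and 0.385 TPM.

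**Figure D2:**
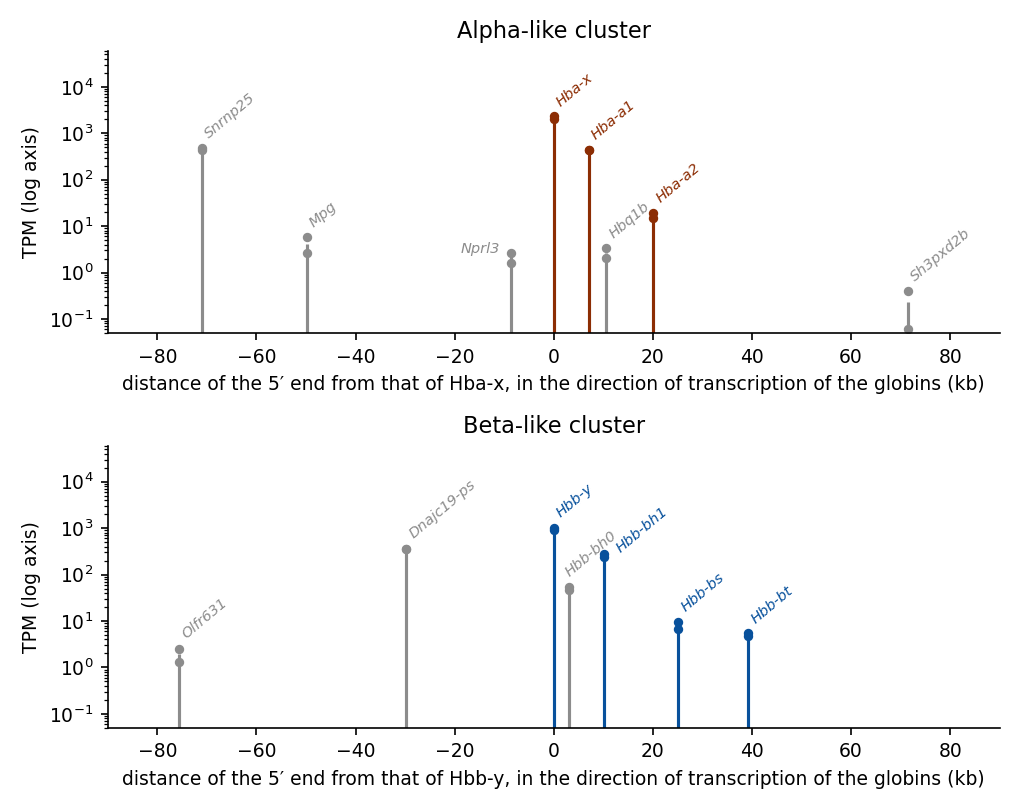
TPM (log axis) of the genes in the table within 100 kb of the alpha-like (top) and beta-like (bottom) clusters, against the distance in kb of the start of each gene from that of Hba-x or Hbb-y, counted in the direction in which the globin genes are transcribed. Points are the 2 replicates, stems reach the mean, the 7 globin genes are colored and other genes are gray. Levels fall along each cluster from Hba-x to Hba-a2 and from Hbb-y to Hbb-bt, and Hbq1b and Hbb-bh0 lie lower than the colored genes on either side of them.

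Genes next to the clusters were at a range of levels. On the 5′ side of the alpha-like cluster, Nprl3, whose introns hold the major alpha-globin enhancers, was at 1.57 and 2.69 TPM, and Mpg, which encodes a DNA repair glycosylase, at 2.66 and 5.74 TPM. On the other side, Sh3pxd2b was at 0.401 and 0.0616 TPM. Upstream of the beta-like cluster, the processed pseudogene Dnajc19-ps was at 350 and 361 TPM, and the olfactory receptor gene Olfr631 at 1.31 and 2.49 TPM. Further from the alpha-like cluster on the 5′ side, Snrnp25, which encodes a protein of the minor spliceosome, was at 479 and 428 TPM. Its mean of 454 ± 36.5 TPM was the highest of these neighbors and close to that of Hba-a1, and Dnajc19-ps also exceeded Hbb-bh1. Sequence that the pseudogene Dnajc19-ps may share with other genes was not searched. The means of Nprl3, Mpg, Sh3pxd2b and Olfr631 were below that of Hbb-bt, the lowest of the 7 globin genes.

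The coding sequences show how the members relate. The first 60 coding bases are given below because they show which genes can be told apart by their reads. They are written 5′ to 3′ from the start codon, with capitals for the bases that differ from Hba-a1 (alpha-like genes) or from Hbb-bs (beta-like genes), and were read from GENCODE M21 transcripts.
Hba-a1: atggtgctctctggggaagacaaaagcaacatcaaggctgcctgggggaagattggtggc
Hba-a2: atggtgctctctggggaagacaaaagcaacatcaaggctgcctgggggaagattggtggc
Hba-x: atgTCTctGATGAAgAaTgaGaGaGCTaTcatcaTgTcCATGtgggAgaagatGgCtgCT
Hbb-bs: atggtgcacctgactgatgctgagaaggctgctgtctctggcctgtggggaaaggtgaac
Hbb-bt: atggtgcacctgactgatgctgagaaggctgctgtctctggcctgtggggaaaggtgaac
Hbb-y: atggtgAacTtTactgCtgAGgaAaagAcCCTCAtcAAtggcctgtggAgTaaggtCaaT
Hbb-bh1: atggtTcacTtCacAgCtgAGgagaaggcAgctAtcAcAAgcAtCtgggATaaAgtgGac

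Hba-a1 and Hba-a2 were identical in these bases, as were Hbb-bs and Hbb-bt, whereas Hba-x differed from Hba-a1 at 28 of 60 bases. Over the whole coding sequence (429 bases with the stop codon), Hba-a1 and Hba-a2 differed by C381T alone, counted from the A of the start codon with the Hba-a1 base first. Hbb-bs and Hbb-bt (444 bases) likewise differed by C417T alone, with the Hbb-bs base first. Hba-x was 62.0% identical to Hba-a1, and Hbb-y was 76.4% identical to Hbb-bh1 and 74.3% to Hbb-bs. Adult copies are thus nearly identical to each other, and the embryonic genes are distinct from them and from one another.

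Reads that fit several genes equally well can be dropped, split or assigned to 1 gene, and how the authors' counting treated them is not stated. Every window of 150 bases in the principal transcript of each globin gene was therefore searched in all other GENCODE transcripts, on both strands. None of the windows of Hba-x, Hbb-y and Hbb-bh1 was found in the transcript of another gene. Of the windows of Hba-a1, 48.4% were also in Hba-a2, and 65.7% of those of Hba-a2 were in Hba-a1. Shared windows made up 58.7% for Hbb-bs and 50.7% for Hbb-bt. With windows of 75 bases the shares were 62.2% for Hba-a1, 81.0% for Hba-a2, 64.3% for Hbb-bs and 56.6% for Hbb-bt. The reference genome itself was not searched. The recovered reads of all 7 genes were whole numbers, within 0.02, in both libraries.

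**Figure D3:**
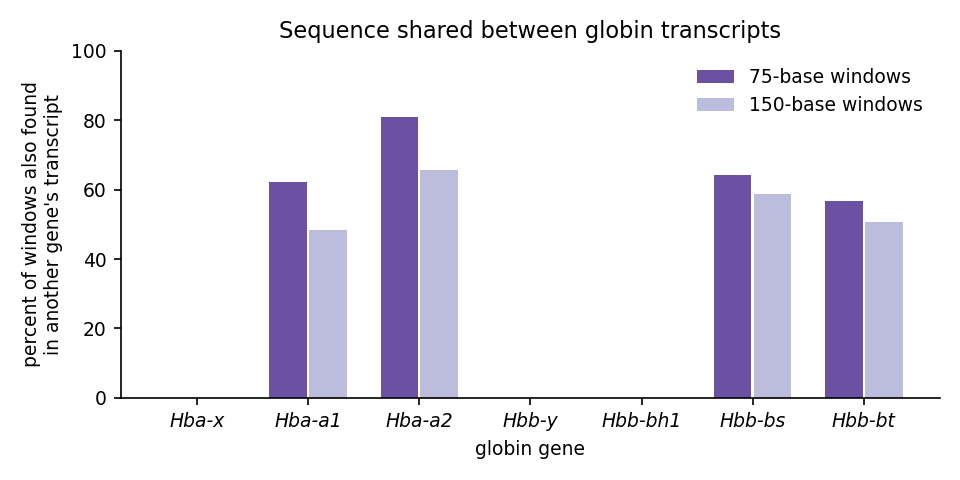
Percent of the 75-base and 150-base windows of each principal globin transcript that were also found in a transcript of another gene. Bars are at 0 for Hba-x, Hbb-y and Hbb-bh1, and between 48.4% and 81.0% for the 4 adult genes.

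Hba-a1 exceeded Hba-a2 23.2-fold in replicate 1 (95% counting interval 19.3 to 28.0) and 29.3-fold in replicate 2 (20.7 to 42.8), a mean log2 ratio of 4.70 ± 0.240 (SD, n = 2). The annotated transcript of Hba-a1 starts further upstream and has 196 bases before the start codon, compared with 35 in Hba-a2. When reads were divided by the number of 75-base windows found in that gene alone, in place of exonic length, the mean log2 ratio was 3.61, which is 12.2-fold. With 150-base windows it was 3.96, or 15.5-fold. Hba-a1 remained above Hba-a2 under each measure, and the size of the difference changed. Its place below Hbb-y, given above by TPM, was not kept on the 75-base scale. There Hba-a1 had 3440 and 1177 reads over 236 windows, and Hbb-y 5576 and 2170 reads over 559. Per window Hba-a1 was thus higher in both libraries. Over 150-base windows (284 and 484) Hba-a1 was higher in replicate 1 and lower in replicate 2. The assignment of reads between Hba-a1 and Hba-a2 was not measured. For Hbb-bs over Hbb-bt the mean ratio, 1.60-fold by TPM, was 1.42-fold on the 75-base scale. With windows of the principal transcript only, chosen after seeing the data, it was 2.41-fold.

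The 250 bases before and 50 bases after the start sites were examined because globin promoters are a textbook case of shared motifs, and because the nearly identical adult alpha genes differed in level. RefSeq promoters were found for 6 of 7 genes. Those of Hba-x, Hbb-y, Hba-a1 and Hbb-bs are shown as the most abundant embryonic and adult gene of each family, 5′ to 3′ in the direction of transcription. Capitals mark the TATA-like words ATAAA and also ATAAG, the CCAAT box, the word CACCC bound by Klf factors, and the word GATAA bound by Gata factors, on either strand. These motifs can overlap, as in GATAAG, which holds GATAA and ATAAG.
Hba-x, GRCm38.p6 chr11:32276350-32276649, plus strand: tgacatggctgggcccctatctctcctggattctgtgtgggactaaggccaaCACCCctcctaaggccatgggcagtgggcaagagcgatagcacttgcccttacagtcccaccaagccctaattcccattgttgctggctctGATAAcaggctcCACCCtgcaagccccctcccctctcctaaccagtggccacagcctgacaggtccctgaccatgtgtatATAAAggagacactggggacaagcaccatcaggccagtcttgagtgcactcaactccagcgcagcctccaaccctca
Hbb-y, GRCm38.p6 chr7:103853158-103853457, minus strand: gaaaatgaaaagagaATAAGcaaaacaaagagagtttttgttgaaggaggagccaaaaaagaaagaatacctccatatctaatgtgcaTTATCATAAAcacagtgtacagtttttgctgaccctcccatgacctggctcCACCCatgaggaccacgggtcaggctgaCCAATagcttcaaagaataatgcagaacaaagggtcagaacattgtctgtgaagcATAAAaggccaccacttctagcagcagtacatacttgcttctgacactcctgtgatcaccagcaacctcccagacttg
Hba-a1, GRCm38.p6 chr11:32283422-32283721, plus strand: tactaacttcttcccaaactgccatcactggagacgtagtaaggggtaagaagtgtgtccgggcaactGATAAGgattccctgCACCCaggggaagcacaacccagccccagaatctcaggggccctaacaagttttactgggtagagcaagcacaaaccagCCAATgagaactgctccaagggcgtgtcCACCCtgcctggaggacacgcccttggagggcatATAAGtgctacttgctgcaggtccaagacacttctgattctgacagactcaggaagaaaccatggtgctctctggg
Hbb-bs, GRCm38.p6 chr7:103827879-103828178, minus strand: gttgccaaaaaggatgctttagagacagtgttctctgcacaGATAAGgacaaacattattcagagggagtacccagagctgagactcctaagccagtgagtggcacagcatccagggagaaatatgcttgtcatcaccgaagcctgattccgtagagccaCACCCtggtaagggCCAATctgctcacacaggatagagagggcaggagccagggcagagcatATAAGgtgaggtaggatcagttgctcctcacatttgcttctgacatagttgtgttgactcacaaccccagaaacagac

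CACCC and GATAA were each found in 6 of 6 globin promoters, compared with 57.5% and 25.4% of 32851 promoters of the same length. CCAAT was found in 5 of 6, all but that of Hba-x, compared with 37.4%, ATAAG in 5 of 6 compared with 27.9%, and ATAAA in 3 of 6 compared with 40.01%. A TATA-like word, ATAAA or ATAAG, began between positions -29 and -26 from the start site in all 6. The share of all promoters with such a word there was not counted. The promoter windows of Hba-a1 and Hba-a2 were identical over the 297 bases that they share, although their levels differed. The RefSeq start site of Hba-a1 lies inside its first GENCODE exon. Those of Hba-x and Hbb-bs, among others, also lie downstream of the GENCODE gene starts. The windows of Hbb-bs and Hbb-bt were 56.2% identical when aligned without gaps. These matches are descriptions of sequence and were not tested as binding sites.

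Summed by family, alpha-like transcripts were at 2795 TPM in replicate 1 and 2513 TPM in replicate 2, and beta-like transcripts at 1213 and 1273 TPM. The alpha-like sum was higher in both libraries, by 2.30-fold and 1.97-fold (mean log2 ratio 1.09 ± 0.158, SD, n = 2). Hba-x alone exceeded Hbb-y and Hbb-bh1 together 1.95-fold and 1.64-fold, so the excess was found among the embryonic genes as well. It was larger when reads were divided by coding length, at a mean log2 ratio of 1.68 (3.21-fold). The adult genes differed more between families, with 465 and 448 TPM for the alpha pair and 15.1 and 11.3 TPM for the beta pair, a ratio of 30.8 and 39.7.

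By TPM, embryonic genes held most of the globin transcripts. Hba-x, Hbb-y and Hbb-bh1 together made up 88.0% of globin TPM in replicate 1 and 87.9% in replicate 2 (87.9% ± 0.117 on average). Per 75-base window found in 1 gene alone, a scale that raises the adult genes, their share was 69.4%. This share would be lower with a shorter 5′ end of Hba-a1, because fewer windows of its own would remain. By TPM the families differed in the embryonic share, at 83.4% and 82.2% for alpha-like and 98.8% and 99.1% for beta-like transcripts. Nearly all adult globin transcript was alpha-like, with 465 and 448 TPM compared with 15.1 and 11.3 TPM for the adult beta pair. By TPM most of the alpha part was counted under Hba-a1, and the assignment of reads between Hba-a1 and Hba-a2 was not measured.

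Within the embryonic beta-like genes, Hbb-y exceeded Hbb-bh1 3.42-fold in replicate 1 (95% counting interval 3.23 to 3.61) and 4.33-fold in replicate 2 (3.92 to 4.79). The counting intervals of the 2 libraries did not overlap, and the mean log2 ratio was 1.94 ± 0.243 (SD, n = 2). Hbb-y made up 76.4% and 80.5% of beta-like TPM, and Hbb-bh1 22.4% and 18.6%. This ratio varied little with the measure of length, from 1.93 to 1.99 on the log2 scale. Both genes are of similar exonic length (633 and 613 bases) and equal coding length (444 bases), and neither shares windows with another transcript.

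**Figure D4:**
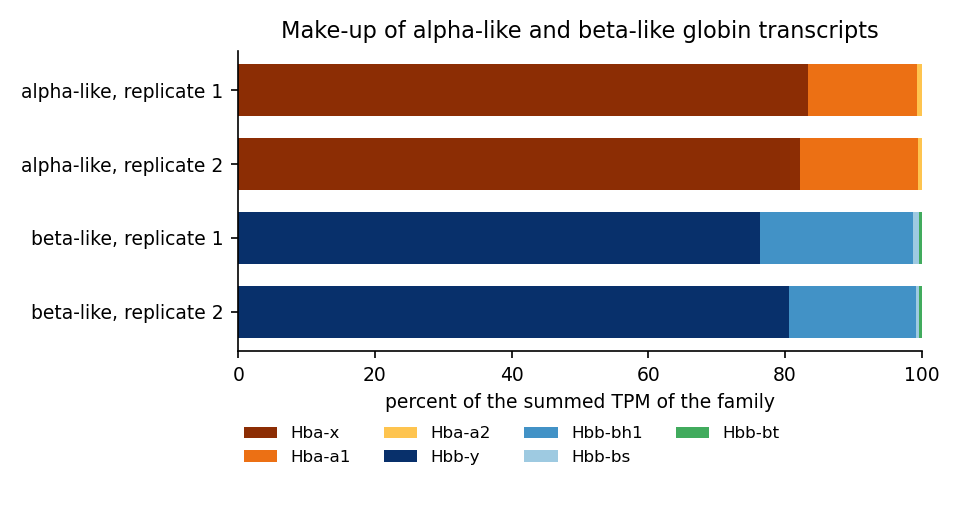
Percent of the summed TPM of the alpha-like and beta-like globin genes held by each gene in each replicate. Hba-x holds 83.4% and 82.2% of the alpha-like sum, and Hbb-y with Hbb-bh1 holds 98.8% and 99.1% of the beta-like sum.

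The replicates were compared next, as a description of 2 libraries of 1 group. Of the 7 genes, 6 were lower in replicate 2 (compared with 55.7% of genes above 0) and Hbb-y was higher. On the log2(TPM + 1) scale the differences ran from -0.49 for Hbb-bs to 0.15 for Hbb-y, with a median of -0.17, compared with -0.01 over all genes. None of the 7 differed more than 2-fold, compared with 10.2% of all genes. The counting interval of the ratio of reads did not include 0 for Hba-x (log2 -0.14, interval -0.18 to -0.10), Hbb-bh1 (-0.16, -0.31 to -0.01) and Hbb-y (0.18, 0.11 to 0.25), which is 3 of 7, compared with 38.8% of all genes with a read. They are also 3 of the 5 members with at least 100 reads, compared with 48.2% of all genes at that depth, shares too near each other to set the globins apart. Among 1165 genes with a mean of 100 to 3000 TPM the SD of the difference was 0.21, wider than the difference of Hba-x, Hba-a1, Hbb-y or Hbb-bh1.

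**Figure D5:**
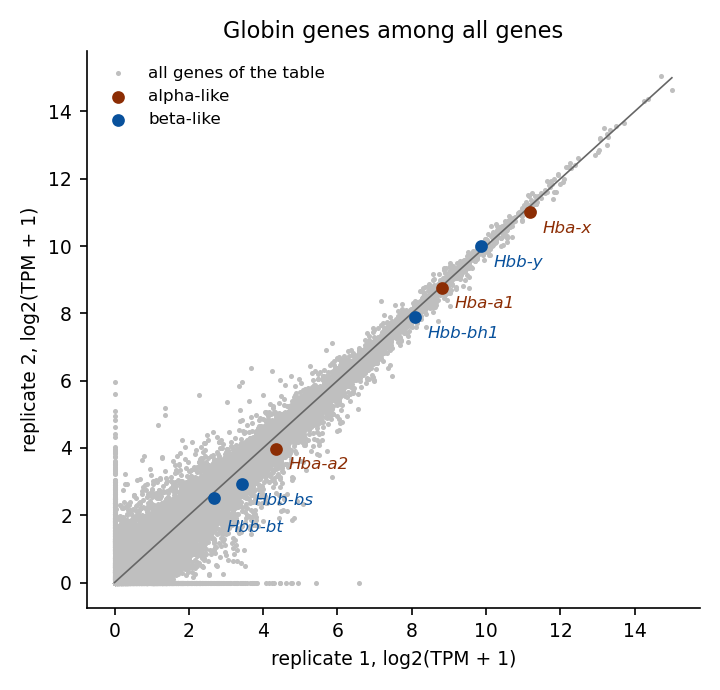
Log2(TPM + 1) in replicate 2 against replicate 1 for all 18877 genes of the table (gray) and the 7 globin genes (colored), with the line of equal values. The globin genes lie within the spread of other genes of their level, between Hbb-bt at 2.68 and 2.51 and Hba-x at 11.2 and 11.0.

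The 7 genes together held 0.401% of TPM in replicate 1 and 0.379% in replicate 2, and 0.199% and 0.190% of recovered reads. They are short genes (613 to 938 exonic bases), so their share of reads was smaller than their share of TPM.

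Other genes of the erythroid program were examined from 3 lists, of erythroid transcription factors, genes of heme and iron, and genes of the red cell membrane and its enzymes. Of 62 listed genes, 38 were in the table and 26 reached 1 TPM in both, which is 68.4%, compared with 60.0% of all genes. At 5 TPM the share was 34.2% (13 of 38), compared with 35.5% of all genes. Listed genes with no row in the table, among them Gata1, Alas2, Ahsp and Epor, were not analysed here. No gene of the 3 lists reached the level of Hbb-bh1.

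Transcription factors of the erythroid lineage with a row in the table were low. Of 17 listed, 9 were in the table and 4 of these were detected in both libraries, compared with 60.0% of all genes. The median of the 9 was 0.920 TPM, compared with 2.65 TPM over all genes. Only Lmo2 and Gata2 had a mean above the latter, at 2.97 and 2.81 TPM. Lmo2, an adaptor of the erythroid factor complex, was highest at 1.80 and 4.14 TPM (37 and 30 reads), followed by Gata2 at 2.79 and 2.83 TPM, Klf3 at 1.73 and 2.37 TPM and Myb at 2.01 and 1.41 TPM. Klf1, the activator of adult beta-globin genes, was at 0.275 and 1.56 TPM on 4 and 8 reads.

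Heme and iron genes were more often detected, with 15 of 17 in both libraries, compared with 60.0% of all genes. Their median was 5.72 TPM. Alad, a cytosolic enzyme of heme synthesis, was highest at 104 ± 13.7 TPM, followed by the heme oxygenase gene Hmox2 at 44.5 ± 7.43, the transferrin receptor gene Tfrc at 20.4 ± 1.36 and Urod at 19.5 ± 4.09 TPM. Many of these genes act in all cells.

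Genes of the red cell membrane and its enzymes were detected in 7 of 12 cases, close to the 60.0% of all genes. Their median was 4.12 TPM. Prdx2, a peroxiredoxin abundant in red cells and present in other cells, was highest at 172 ± 1.99 TPM. Bpgm, which makes the hemoglobin regulator bisphosphoglycerate, followed at 12.1 ± 1.26 TPM, then Tmod1, a tropomodulin, at 9.14 ± 0.603 and carbonic anhydrase gene Car2 at 7.18 ± 2.13 TPM. Car1 was listed at 0 in both libraries, where 3 reads would give 0.253 and 0.719 TPM.

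Among markers of other cell types in the table, 3 of 3 megakaryocyte and 4 of 5 macrophage markers reached 1 TPM in both libraries. So did 1 of 5 endothelial and 1 of 3 yolk sac endoderm markers, compared with 60.0% of all genes. The summed level of 3 megakaryocyte markers in the table was 90.9 and 86.3 TPM, nearly all of it from the platelet factor gene Pf4 at 84.9 and 83.0 TPM (582 and 200 reads). The 5 macrophage markers summed to 23.9 and 12.1 TPM and were lower in replicate 2 in 5 of 5 genes, compared with 55.7% of all genes above 0. The counting interval of the ratio of reads included 0 for Tyrobp, Cd68 and C1qb, and lay below 0 for Csf1r and Fcer1g. It excluded 0 for 38.8% of all genes with a read. Fcer1g was the highest of the 5 at 11.0 and 6.16 TPM (91 and 18 reads). C1qb was at 1.16 TPM (12 reads) in replicate 1 and listed at 0 in replicate 2, where 3 reads would give 0.825 TPM. The 5 endothelial markers summed to 12.9 and 11.0 TPM, mostly from Pecam1 at 8.23 and 9.99 TPM, and Emcn was listed at 0 in replicate 2. The 3 markers of yolk sac endoderm summed to 2.57 and 7.46 TPM, and were not of 1 direction. Rbp4, which carried most of the sum in replicate 2, was at 1.30 and 5.77 TPM (17 and 26 reads) and Apoa1 at 0.426 and 1.69 TPM (5 and 7 reads), whereas Afp was at 0.843 TPM in replicate 1 and listed at 0 in replicate 2. Whether cells of these types were present, or whether they or their RNA contributed the globin transcripts, was not tested.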

How the data were processed

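RNA-seq of E9.5 PGCs was analysed from 1 table of TPM deposited by the authors, who aligned clean reads to mm10 with Hisat2 and counted them per gene with featureCounts. The submitters' processing notes also list Bowtie2 and RSEM with no role. Annotation, strand and the treatment of multi-mapping reads are not given in the sources used here. The labels name an NEBNext kit and the methods describe Smart-seq2, so the library chemistry is uncertain.

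Genes were matched to GENCODE M21 (GRCm38, the assembly of mm10), with 1 gene identifier for 18748 symbols. TPM multiplied by summed exon length gave whole multiples of 1 amount per library, taken as 1 read. Among values under 50 reads, 96.7% and 95.8% were whole within 0.02, where chance gives 4%. Recovery was tested on simulated data. Poisson, ratio and zero limits (3 reads) describe counting error alone, because PCR copies of a molecule are counted separately. Windows of 75 and 150 bases were compared with 141767 transcripts, and promoters were taken from RefSeq (GRCm38.p6).

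With 1 group no test was made. Members and lists were chosen with earlier results of these data known. All 7 globin genes are named, and of each list the 4 highest by mean TPM, the genes at 0 in both libraries and a set of defining genes could be named, with the nearest neighbors of each cluster. Of the lists of other blood, vascular and endoderm markers, some of these are given. C1qb and Snrnp25 were outside this rule and were named after their values were seen. A listed gene is not reported here. Alternatives covered the pseudocount, filters, scaling, length and leaving out each replicate. Python 3.11.15, numpy 2.4.6, pandas 2.3.3, scipy 1.17.1 and matplotlib 3.10.9 were used.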

Additional observations from a re-analysis of the deposited data

How the results depend on the processing

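Apart from leaving out a replicate, 23 of 36 alternative values moved by more than the spread between replicates. For a count, moving meant a change of over 1.5 times. None of the 36 changed direction. The order of the globin genes by level was not among these values, and it did depend on the scale. Per 75-base window found in 1 gene alone, Hba-a1 was above Hbb-y in both libraries, the reverse of their order by TPM. Per such 150-base window, their order differed between the libraries. Without mitochondrial genes and genes under 200 exonic bases, the median globin level rose from 7.99 to 8.32 (log2) and the globin share of TPM from 0.390% to 0.489%. By recovered reads this share was 0.194%. With genes of a mean under 1 TPM left out, the median globin percentile was 95.1 in place of 96.7. The log2 ratio of alpha-like to beta-like transcripts, 1.09 by TPM, was 1.63 by reads, 1.68 per coding length, and 1.497 (75 bases) and 1.27 (150 bases) per window found in 1 gene alone. With windows of the principal transcript only, chosen after seeing the data, it was 1.64 and 1.44, and with Hbb-bh0 added to the beta-like sum, also chosen after seeing the data, 1.04. On the 6 scales of length the embryonic share, 87.9% by TPM, was 88.2%, 88.1%, 69.4%, 75.5%, 71.5% and 77.5%, and the log2 ratio of Hba-a1 to Hba-a2, 4.70 by TPM, was 4.99, 4.99, 3.61, 3.96, 3.61 and 3.96. At a TPM of at least 5, 13 erythroid genes were detected in place of 26, and 35.5% of all genes in place of 60.0%. The length by which reads are divided is what differs between these scales. With n = 2, leaving out a replicate gives the value of the other and says nothing about stability. The number of erythroid genes detected was then 28 with either replicate. No paired analysis was possible because the series holds 1 group. Values under about 100 reads, those of Hbb-bs and Hbb-bt in both libraries and of Hba-a2 in replicate 2, are limited by depth.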

Other observations

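The genes ranked next to the globins show which levels they reached. Hba-x, at a mean of 2198 TPM, lay between Gm2000 (2229 ± 209 TPM, SD, n = 2) and Uqcr10 (2166 ± 149 TPM), which encodes a subunit of respiratory complex III. Hba-a1, at 440 TPM, lay directly above Pomp (438 ± 28.9 TPM), the proteasome maturation factor, and Hbb-y, at 976 TPM, directly below the pseudogene Dynlt1-ps1 (981 ± 78.5 TPM). By recovered reads, which favor long genes, Hba-x ranked 102nd, Hbb-y 519th and Hba-a1 859th.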
